A study of Mus musculus with 59 samples.

Results

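Gene expression in the prefrontal cortex of wild-type mice that had received lithium was compared with that of wild-type mice that had received vehicle. The libraries were chosen by their labels for genotype and drug, which gave 20 of the 59 libraries of the series: 10 of WT lithium and 10 of WT vehicle, with 5 females and 5 males in each. All mice were C57BL/6J and were wild type for Ank2 in these groups. Cortex was taken at postnatal day 25, after 3 weeks (days 3 to 24) in which the pups took up lithium or vehicle through the mother's milk. The series also holds WT fluoxetine libraries (9) and mice labelled heterozygous for Ank2 (HT), the gene of the membrane adaptor ankyrin-B, under lithium, fluoxetine and vehicle. Of these, the HT lithium and HT vehicle libraries (10 each) and the WT fluoxetine libraries enter the comparisons below. The labels do not tie mice to litters or dams, so the p-values measure the spread between libraries. Where pups of a group shared a dam, litter and drug cannot be told apart and the p-values may be too small.

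Lithium is a mood stabilizer whose direct targets are enzymes that depend on magnesium: the kinases GSK3α and GSK3β, and a family of phosphatases that includes inositol monophosphatase. Inhibition of the phosphatases slows the recycling of inositol, from which phosphoinositide second messengers are made, and inhibition of GSK3 stabilizes β-catenin, the protein that carries Wnt signals to the nucleus. Neuronal firing and growth factors switch on immediate early genes through calcium, ERK and CREB signalling, and these genes code for transcription factors, synaptic proteins and feedback inhibitors of the same pathways.

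Values are gene counts that the authors estimated and normalized between libraries, called normalized values here. Per library these came to a total of 30.8 to 32.8 M (mega) in WT lithium and 30.3 to 32.6 M in WT vehicle. With the most frequent low value taken as 1 read, the depth would be 29.0 to 36.3 M reads in WT lithium and 27.2 to 36.3 M in WT vehicle. This estimate is rough. Only 50.1 to 71.0% of low values per library in WT lithium, and 50.2 to 68.0% in WT vehicle, were whole multiples of that value. Cortical excitatory markers were high in every library, with Slc17a7, the vesicular glutamate transporter, at 38476 to 50320 in lithium and 34580 to 52615 in vehicle. Ank2 was at 25376 to 29171 in lithium and 23284 to 30855 in vehicle, above the highest HT library of the series (22813). Markers of the olfactory bulb varied within both groups, their summed value ranging from 5390 to 34013 in lithium and from 7859 to 38838 in vehicle. S100a5, expressed by olfactory sensory neurons, was at 2.12 to 259 in lithium and 1.87 to 474 in vehicle. None of the 16 olfactory bulb markers was called in the comparison of the drugs, and none was at 0 in any of the 20 libraries. None of the 16 had a log2 change above 0. Their median was -0.13, with -0.81 in females and 0.48 in males. In bulk tissue, fewer cells of a type and less RNA per cell cannot be told apart.

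Many genes differed by small amounts between the lithium and vehicle libraries. Of 16919 genes tested, 376 (2.22%) were called at a Benjamini-Hochberg adjusted p under 0.05 by limma, 225 higher (1.33%) and 151 lower (0.892%) in lithium than in vehicle libraries. The median size of these changes was 0.25 on the log2 scale. Only 52 of the 376 exceeded 1.5-fold and 10 exceeded 2-fold. The split into higher and lower calls depended on the scaling between libraries, and with upper-quartile scaling it was 155 higher and 201 lower. The 10 lithium and 10 vehicle libraries did not overlap for 13 of the called genes and for 16 (0.0946%) of all genes tested. The number of calls was 248 without WT lithium female replicate 1, 226 without WT lithium female replicate 3, 214 without WT lithium male replicate 4 and 231 without WT vehicle male replicate 3. Without the 6 libraries that stood apart in olfactory bulb markers it was 269, of which 210 were among the 376.

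Immediate early genes were frequent among the genes that rose most. Of the 10 called genes with the largest rise among those averaging 50 or more and not predicted genes, 9 belonged to 3 lists of such genes. The exception was Tnfrsf25, a death receptor of the tumour necrosis factor family (log2 change 0.87, SE 0.19). Of 60 genes in the 3 lists, 58 passed the minimum level, 34 were called higher and none lower, and 54 had a log2 change above 0. The 34 made up 15.1% of all genes called higher. Over all 16919 genes tested, 225 (1.33%) were called higher, 151 (0.892%) were called lower and 8431 had a log2 change above 0. These shares are to be set beside the counts of each of the 3 lists below. The median log2 change of the 58 was 0.45, against 0.00 over all genes tested. These 3 lists were chosen with earlier results of these data known, so their counts are a description and not a test.

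**Figure D1:**
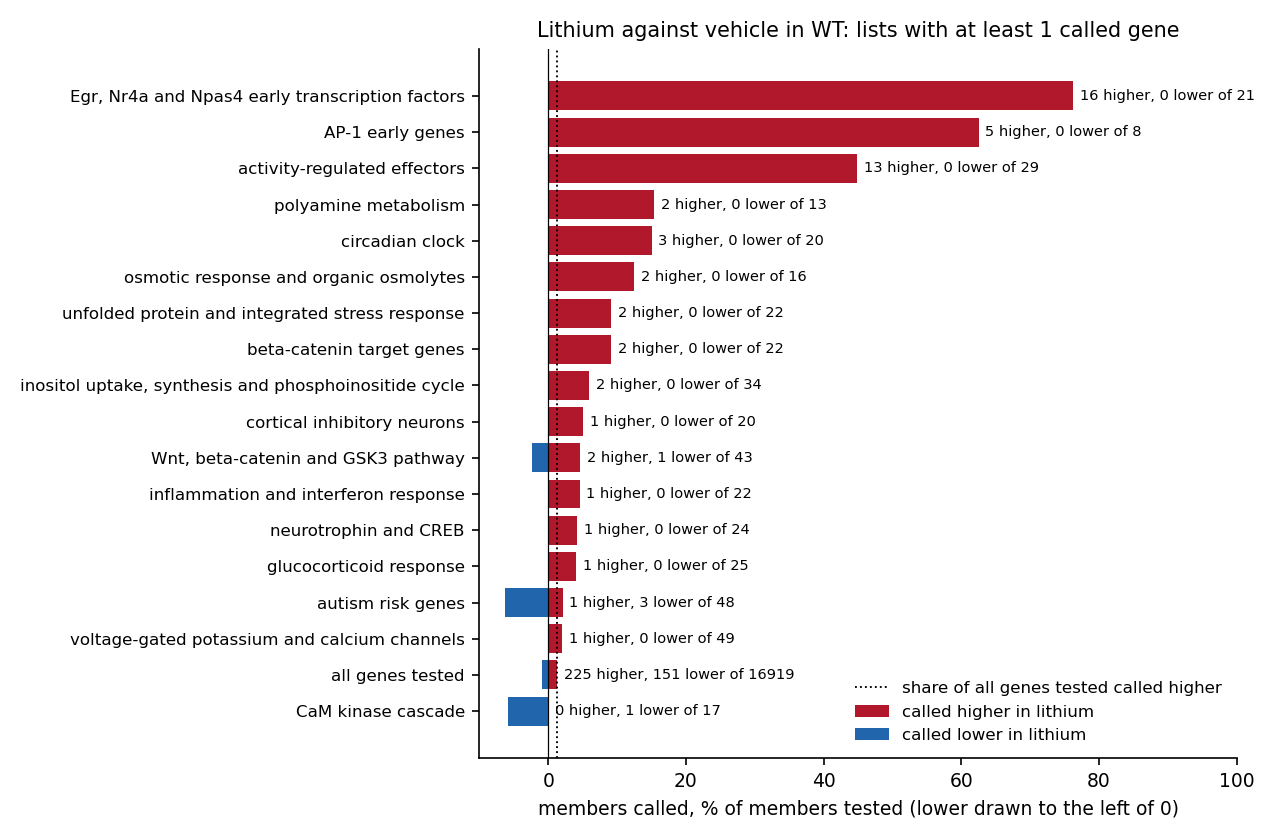
Members called as a percentage of the members tested in each list with at least 1 called gene, for lithium against vehicle in WT; bars to the right of 0 are genes called higher in lithium and bars to the left genes called lower, and the dotted line marks the 1.33% of all genes called higher. The early gene lists stand at the top, with 16 of 21, 5 of 8 and 13 of 29 members called higher. All lists were chosen with earlier results of these data known.

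Among the AP-1 genes, which code for transcription factors of the Fos and Jun families and their relatives, 5 of 8 tested were called higher and none lower, with a median log2 change of 0.71. Fos was at 687, 1269 and 1552 (lowest, median and highest library) in lithium and at 333, 573 and 924 in vehicle. Only lithium female replicate 4, the lowest lithium library, lay inside the vehicle range. Fos averaged 1234 ± 255 in lithium and 594 ± 170 in vehicle (SD, n = 10 each), a log2 change of 1.07 (SE 0.24, limma adjusted p = 0.00721). Junb, a Jun family member, rose 1.85-fold (log2 0.89, SE 0.19, adjusted p = 0.00391), Fosb 1.80-fold and Fosl2 1.48-fold. Atf3, a stress-induced member of the wider family, rose 2.07-fold but lay at only 62.7 ± 31.0 in lithium and 29.1 ± 15.5 in vehicle (SD, n = 10 each), and its call was lost in 5 of the 20 fits that left out 1 library. Jun itself had a log2 change of 0.23 (SE 0.09, adjusted p = 0.19), and Jund, which is made constitutively, -0.01 (SE 0.05, adjusted p = 0.981). The list members Fosl1 and Batf3 were below the minimum level for a test.

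In the second list, of early transcription factors of the Egr, Nr4a and Klf families and other early nuclear regulators, 16 of 21 were called higher and none lower, with a median log2 change of 0.59. Egr2, a zinc finger factor, was at 196, 466 and 574 (lowest, median and highest) in lithium and 85.3, 145 and 309 in vehicle. A single lithium library, female replicate 4, lay inside the vehicle range. Egr2 rose 2.69-fold (log2 1.43, SE 0.29, adjusted p = 0.00262). Nr4a1, an orphan nuclear receptor, was at 1843, 3762 and 4536 in lithium and 1084, 1836 and 2731 in vehicle, and rose 2.01-fold (log2 1.01, SE 0.19, adjusted p = 0.00176). Its vehicle range was exceeded by every lithium library except female replicate 4. The transcription factor gene Csrnp1 rose 1.78-fold, Ier2 1.72-fold, Sik1, a kinase that restrains CREB coactivators, 1.60-fold, and Ier5 1.46-fold. Klf2, Klf4 and Klf10, Krüppel-like factors, rose by 0.46, 0.61 and 0.62 on the log2 scale. Egr1 had a mean of 8501 ± 1068 in lithium and 5910 ± 936 in vehicle (SD, n = 10 each) and rose 1.44-fold (adjusted p = 0.0259). The calls of several members were near the threshold: when 1 of the 20 libraries was left out, Egr1 was not called in 4 of the 20 fits, Egr3 in 12, Egr4 in 14, Nr4a3 in 12 and Btg2 in 17, with log2 changes in the full set of 0.53, 0.34, 0.40, 0.62 and 0.68 and adjusted p up to 0.105 in these fits. Npas4, a neuron-specific activity-dependent factor, was at 982 ± 159 in lithium and 640 ± 220 in vehicle (log2 0.68, SE 0.23) and did not pass (adjusted p = 0.124). Nr4a2 had a log2 change of 0.06 (SE 0.20). The count for the list was 11 to 16 when 1 library was left out and 11 with no minimum level.

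The third list held effectors, the synaptic, secreted and feedback proteins made in response to activity. Here 13 of 29 were called higher and none lower, with a median log2 change of 0.29. Arc, which controls the removal of AMPA receptors from synapses (ENSMUSG00000022602, chromosome 15, 74669083 to 74672570, GRCm38), had the largest rise of any named gene. It was at 2694, 7346 and 9023 (lowest, median and highest) in lithium and 880, 2223 and 4392 in vehicle. Lithium female replicate 4 was again the 1 lithium library inside the vehicle range. Arc rose 3.02-fold (log2 1.59, SE 0.30, adjusted p = 0.00127). Gadd45b, which takes part in DNA demethylation, was at 291, 434 and 538 in lithium and 212, 255 and 325 in vehicle (log2 0.67, SE 0.10, adjusted p = 2.95e-05), the smallest p of the early genes. Only lithium female replicate 4 and male replicate 1 lay below the highest vehicle library. The secreted neuropeptide precursor Vgf rose 1.37-fold (adjusted p = 0.000241), the neurotrophin Bdnf 1.35-fold (adjusted p = 0.00315) and the orphan receptor Gpr3 1.61-fold (adjusted p = 0.000598). Ccn1, a matrix protein, rose 1.89-fold at a low level (206 ± 77.4 in lithium, 106 ± 34.5 in vehicle, SD, n = 10 each). Nptx2, a pentraxin that clusters AMPA receptors, had a log2 change of 0.29 and was not called in 10 of the 20 fits that left out 1 library. Homer1, a postsynaptic scaffold, had a log2 change of 0.19 (SE 0.10, adjusted p = 0.368).

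**Figure D2:**
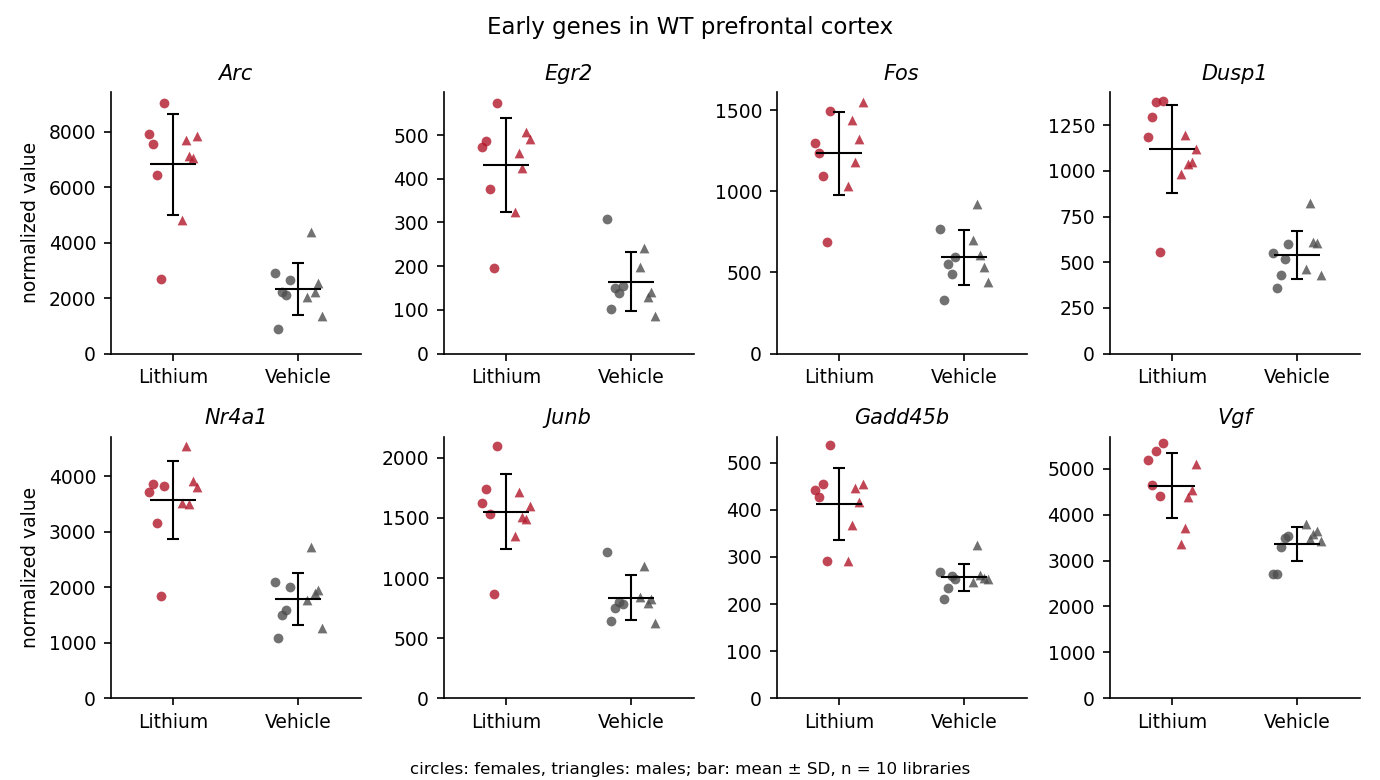
Normalized values of 8 early genes in each of the 10 WT lithium (left) and 10 WT vehicle libraries (right), circles for females and triangles for males, with mean and SD. In 6 of the 8 panels a single lithium circle, female replicate 4, lies at the vehicle level, while the other lithium libraries are above or near the top of the vehicle range.

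The effector list holds 6 genes of the Dusp and Spry families, feedback inhibitors of MAP kinase signalling, of which Dusp1, Dusp6, Spry4 and Spry2 were called higher. Dusp4 had a log2 change of 0.41 (SE 0.14, adjusted p = 0.115) and Dusp5 of 0.48 (SE 0.19, adjusted p = 0.215). Dusp1, a phosphatase of MAP kinases, was at 554, 1154 and 1381 (lowest, median and highest) in lithium and 361, 535 and 825 in vehicle, a 2.07-fold rise (log2 1.05, SE 0.17, adjusted p = 0.000357). Here too lithium female replicate 4 was the 1 lithium library inside the vehicle range. Dusp6, the phosphatase specific for ERK, was at 2253, 2752 and 3134 in lithium and 1470, 1839 and 2037 in vehicle, so every lithium library lay above every vehicle library (1.51-fold, adjusted p = 0.000436). Spry4, a Sprouty inhibitor of receptor tyrosine kinase signalling, likewise showed no overlap, at 397, 537 and 666 in lithium and 236, 339 and 373 in vehicle (1.61-fold, adjusted p = 0.000364). Spry2 rose 1.23-fold (adjusted p = 0.00212). The 4 genes that follow were picked from the called genes after their values were seen and are no measure of any pathway. Mapk3, which codes for ERK1, fell without overlap, at 3125, 3432 and 3577 in lithium and 3732, 3894 and 4498 in vehicle (log2 -0.21, SE 0.04, adjusted p = 0.00146). Sos1, an exchange factor that activates Ras, rose 1.11-fold without overlap (adjusted p = 0.0306). That call was lost with no minimum level, with upper-quartile scaling and in 4 of the 20 fits that left out 1 library. Map2k3, a kinase upstream of p38, rose 1.23-fold (adjusted p = 0.000598). Nab2, a corepressor of Egr factors, rose 1.23-fold (adjusted p = 0.0213) and was not called without WT vehicle female replicate 5 (adjusted p = 0.0541).

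The level of each early gene list was summarised per library. The list level of a library is the mean, over the members tested, of the log2 deviation from the mean of the 20 libraries. For the AP-1 genes it was -0.30, 0.36 and 0.61 (lowest, median and highest) in lithium and -0.61, -0.33 and 0.13 in vehicle. For the Egr, Nr4a and Npas4 group it was -0.12, 0.33 and 0.41 in lithium and -0.60, -0.29 and 0.07 in vehicle. For the effectors it was -0.09, 0.23 and 0.36 in lithium and -0.48, -0.17 and -0.04 in vehicle. Lithium female replicate 4 was the lowest lithium library in all 3 lists and vehicle male replicate 2 the highest vehicle library. Lithium female replicate 4 also had few olfactory bulb transcripts (list level -1.09), and vehicle male replicate 2 had the highest level of striatal markers (0.72). Without the 6 libraries apart in olfactory bulb markers, among them lithium female replicate 4, 5 AP-1 genes, 12 of the second list and 13 effectors were called. The part of the striatal markers in the result was not tested.

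**Figure D3:**
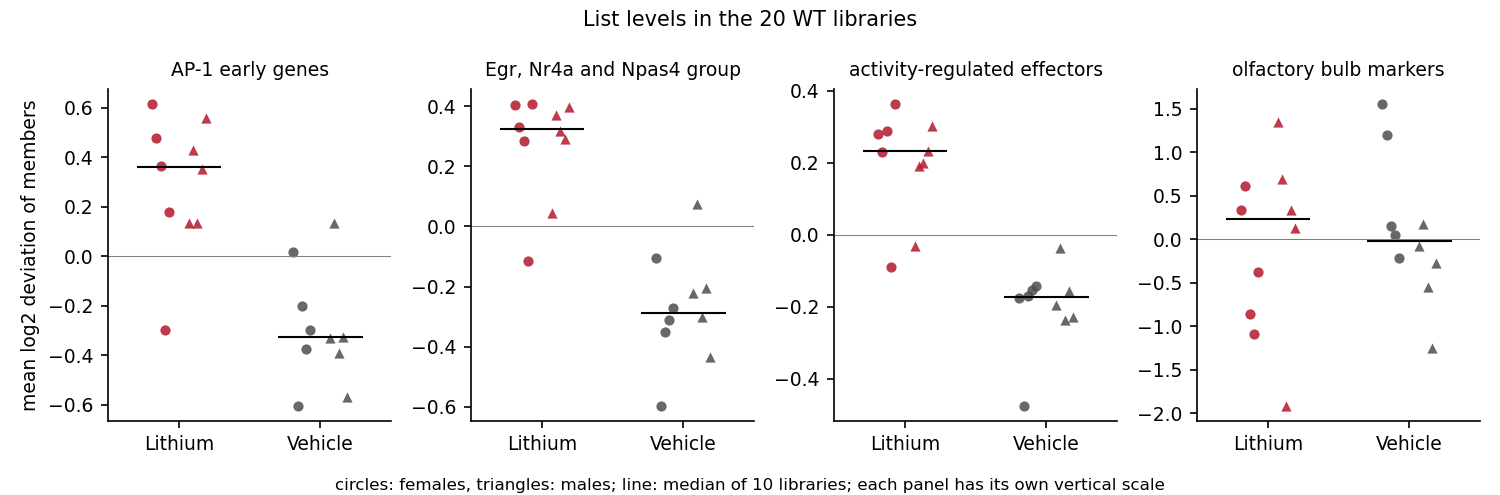
List level, the mean log2 deviation of the members tested, in each of the 20 WT libraries for the 3 early gene lists and for olfactory bulb markers; lithium is left of vehicle, circles are females, triangles males and lines medians. The medians of the early gene lists are 0.36, 0.33 and 0.23 in lithium and -0.33, -0.29 and -0.17 in vehicle, while olfactory bulb markers spread widely in both groups.

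The promoters of the early genes called higher were examined for the sites of the factors that are known to drive them. RefSeq promoters of build GRCm38.p6, from 250 bases before to 50 after the start site, were matched by symbol for 24 of the 34 genes. The core TGACG, on either strand and including those inside the full cAMP response element TGACGTCA, stood in a promoter of 18 of the 24 genes (75%), against 6228 of 27025 genes in the table (23.0%). It stood in a promoter of 11 of 19 matched early genes that were not called. Counted by promoter, since some genes have several, the shares were 24 of 38 (63.2%) and 20.8%. TGACGTCA was found in 2 of the 24 genes (8.33%, against 2.03% of all genes), the AP-1 sites TGAGTCA or TGACTCA in 2 (8.33%, against 5.95%) and the CArG box of serum response factor, on either strand, in 1 (4.17%, against 1.81%). Among the 19 matched early genes not called, TGACGTCA was found in 4, the AP-1 sites in 0 and the CArG box in 1. Shown are the promoters of the 4 genes with the smallest p among those matched, with matches in capitals; the Dusp1 promoter holds a full element and a further core, and none of these motifs was found in the other 3.
Dusp1: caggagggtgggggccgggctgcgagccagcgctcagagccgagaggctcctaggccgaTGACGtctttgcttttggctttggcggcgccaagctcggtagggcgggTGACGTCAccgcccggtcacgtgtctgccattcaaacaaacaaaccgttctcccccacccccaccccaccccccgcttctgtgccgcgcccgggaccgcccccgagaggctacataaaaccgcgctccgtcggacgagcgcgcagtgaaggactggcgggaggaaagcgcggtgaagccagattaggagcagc
Gadd45b: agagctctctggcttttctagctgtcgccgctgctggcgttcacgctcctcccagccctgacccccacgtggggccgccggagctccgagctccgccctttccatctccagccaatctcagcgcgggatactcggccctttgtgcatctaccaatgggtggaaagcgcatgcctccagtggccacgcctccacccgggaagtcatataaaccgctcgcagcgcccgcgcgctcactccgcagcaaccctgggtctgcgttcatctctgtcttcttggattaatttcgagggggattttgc
Ier5: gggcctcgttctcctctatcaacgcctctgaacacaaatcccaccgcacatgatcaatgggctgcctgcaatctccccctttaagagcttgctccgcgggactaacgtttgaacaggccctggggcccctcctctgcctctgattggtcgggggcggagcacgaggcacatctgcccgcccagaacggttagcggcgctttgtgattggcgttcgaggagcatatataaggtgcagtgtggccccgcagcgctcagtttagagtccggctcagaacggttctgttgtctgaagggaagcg
Dusp6: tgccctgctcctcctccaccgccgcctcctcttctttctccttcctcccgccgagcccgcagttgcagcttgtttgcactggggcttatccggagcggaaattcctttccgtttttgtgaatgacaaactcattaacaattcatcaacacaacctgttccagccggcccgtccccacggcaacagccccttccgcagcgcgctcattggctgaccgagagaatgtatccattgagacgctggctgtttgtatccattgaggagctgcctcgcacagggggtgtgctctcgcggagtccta

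Coordinates on GRCm38.p6 are chr17:26508423-26508722 (minus strand) for Dusp1, chr10:80929841-80930140 (plus strand) for Gadd45b, chr1:155099587-155099886 (minus strand) for Ier5 and chr10:99262981-99263280 (plus strand) for Dusp6.

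No list had more than 3 members called lower. Pnck, a neuronal calcium/calmodulin-dependent protein kinase of the CaM kinase I family (ENSMUSG00000002012, chromosome X, 73655994 to 73660117, GRCm38), had the smallest p of all genes. It was at 991, 1333 and 1502 (lowest, median and highest) in lithium and 1585, 1729 and 1941 in vehicle. Every lithium library lay below every vehicle library. The fall was to 0.743-fold (log2 -0.43, SE 0.05, adjusted p = 1.64e-06), by 0.43 in females and 0.42 in males. None of the other 16 members tested in the list of CaM kinases, calmodulins and their inhibitors passed, among them Camk2n2, an inhibitor of CaM kinase II (log2 -0.20, SE 0.07, adjusted p = 0.115), and Camk2a (-0.03). Colgalt1, which adds galactose to collagen, fell to 0.861-fold (adjusted p = 2.95e-05), with 1666, 1739 and 1897 in lithium and 1875, 2056 and 2151 in vehicle. Its groups overlapped only between the highest lithium and the lowest vehicle library.

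Of the 10 called genes with the largest fall, Frat1, whose protein binds GSK3 and promotes Wnt signalling, was at 97.0, 155 and 236 in lithium and 196, 224 and 305 in vehicle, a fall to 0.685-fold (log2 -0.55, SE 0.10, adjusted p = 0.00135). Gkn3, a transcript of arterial endothelium in mouse brain, fell by 0.61 on the log2 scale from a low level (50.3 ± 15.1 in lithium, 76.2 ± 18.4 in vehicle, SD, n = 10 each), and lost its call without WT lithium female replicate 3 or male replicate 5 (adjusted p up to 0.0545). Zfp867, a zinc finger gene, fell by 0.54 (adjusted p = 0.000606), and Tfap4, a transcription factor, by 0.52, with a call lost in 12 of the 20 fits that left out 1 library. The rest were Fdxacb1 (-0.43), Oxld1 (-0.43), Cd180, a Toll-like receptor homologue of immune cells (-0.41), Parp16, an ADP-ribosyltransferase of the endoplasmic reticulum (-0.39), and Ovca2 (-0.36). With Pnck they complete the 10. Cd180 was not called in 5, and Ovca2 in 11, of the 20 fits that left out 1 library. All 10 had mean values between 43.0 and 343 in lithium except Pnck, so most of the strongest falls were in transcripts of low level.

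In the list of Wnt and GSK3 signalling genes, 2 of 43 tested were called higher and 1 lower, with a median log2 change of 0.02. Frat1, named above, was not in this list and was also called lower. Over all genes tested 1.33% were called higher and 0.892% lower. Ctnnb1, which codes for β-catenin (ENSMUSG00000006932, chromosome 9, 120929216 to 120960507, GRCm38), was the list member called lower. It was at 15276, 17005 and 17852 in lithium and 17493, 20572 and 22017 in vehicle. Only vehicle female replicate 1 lay within the lithium range. The fall was to 0.837-fold (log2 -0.26, SE 0.04, adjusted p = 0.000126), by 0.22 in females and 0.29 in males. Axin1, a scaffold of the complex that degrades β-catenin, rose 1.15-fold (adjusted p = 0.0174), and the ligand Wnt10a rose 1.49-fold (adjusted p = 0.00811). Of 22 tested target genes of β-catenin, 2 were called higher, both D cyclins, with a median log2 change of 0.02. Ccnd1 was at 1465, 1715 and 2004 in lithium and 1338, 1444 and 1565 in vehicle (log2 0.25, adjusted p = 0.000598), and Ccnd2 at 2783, 3413 and 4172 in lithium and 2569, 2792 and 3230 in vehicle (1.24-fold, adjusted p = 0.0033). Both cyclins overlapped between the groups. Axin2, a widely used readout of β-catenin activity, had a log2 change of 0.09 (SE 0.05, adjusted p = 0.455), Lef1 0.06 (SE 0.10) and Myc -0.26 (SE 0.10, adjusted p = 0.168).

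**Figure D4:**
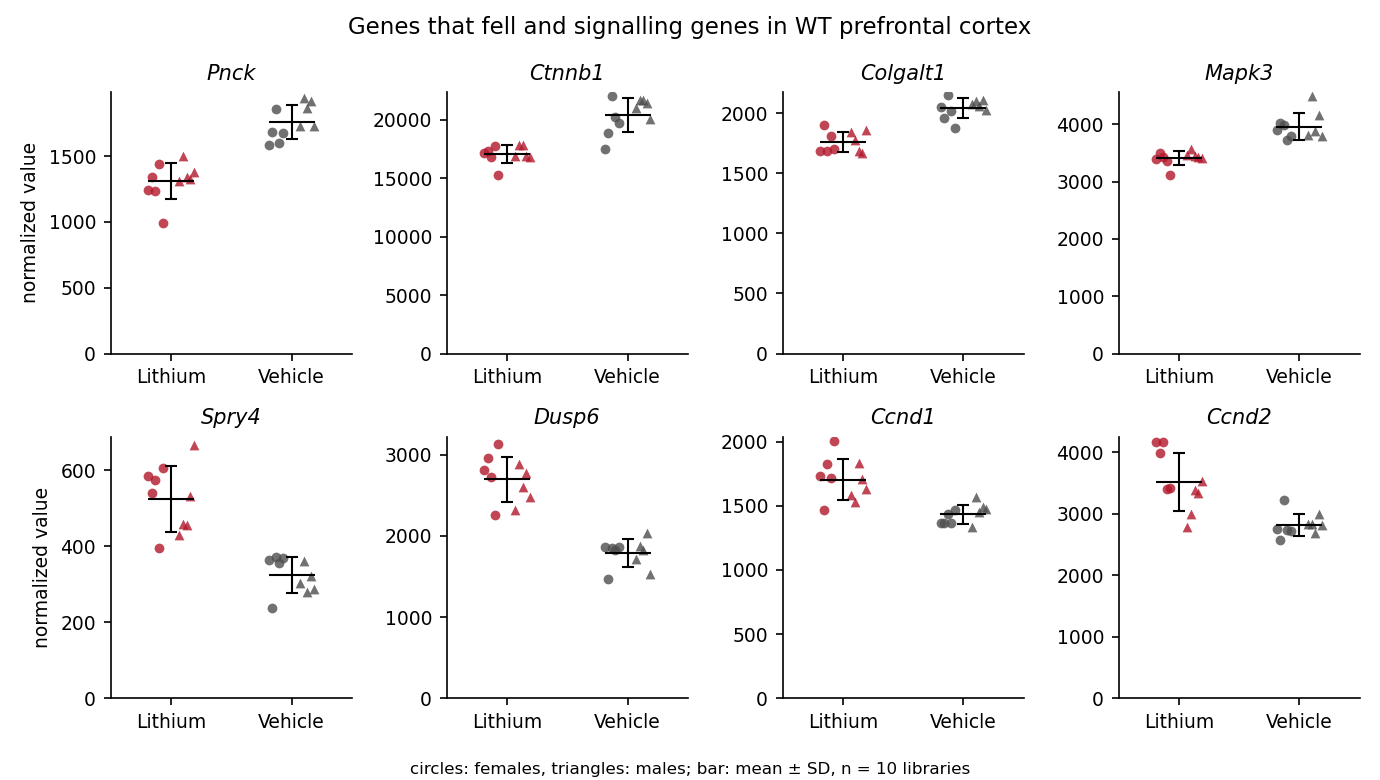
Normalized values of 8 genes in each of the 10 WT lithium (left) and 10 WT vehicle libraries (right), circles for females and triangles for males, with mean and SD. Pnck and Mapk3 are lower, and Spry4 and Dusp6 higher, in every lithium library than in any vehicle library; Ctnnb1, Colgalt1, Ccnd1 and Ccnd2 overlap.

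The mRNAs of lithium's own targets were not called. None of the 11 members tested of the list of GSK3, lithium-sensitive phosphatases, phosphoglucomutases and related enzymes passed, and their median log2 change was 0.00. Gsk3a had a log2 change of -0.06 (SE 0.03, adjusted p = 0.459) and Gsk3b of -0.02 (SE 0.05, adjusted p = 0.919). Inositol monophosphatases were at 0.09 (SE 0.04) for Impa1 and 0.18 (SE 0.23) for Impa2. Inpp1, an inositol polyphosphate phosphatase, was at -0.08 and Inpp4a, listed as a related enzyme, at 0.02. The nucleotide phosphatases Bpnt1 and Impad1 were at 0.01 and -0.03, and Pgm1 and Pgm2 of the phosphoglucomutase family at -0.0004 and 0.02. In the wider list of inositol uptake, synthesis and phosphoinositide signalling, 2 of 34 were called, both higher, against 1.33% of all genes called higher. Slc5a3, the sodium-coupled importer of myo-inositol, was at 825, 1016 and 1132 in lithium and 715, 819 and 949 in vehicle, a 1.21-fold rise (log2 0.28, SE 0.07, adjusted p = 0.0331). The groups overlapped, and its call was lost in 10 of the 20 fits that left out 1 library. Pitpnc1, a phosphatidylinositol transfer protein, had a log2 change of 0.17 and lost its call in 15 of the 20 fits that left out 1 library. Neither was called without the 6 libraries apart in olfactory bulb markers.

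Smaller groups held isolated calls, to be set against 2.22% of all genes called (1.33% higher, 0.892% lower). Whether any list exceeded that share was not tested. Osmotic response genes had 2 of 16 called, Slc5a3 and the amino acid transporter Slc38a2 (1.20-fold, adjusted p = 0.00938). Slc38a2 was not called when only the 20 libraries were fitted (adjusted p = 0.0621). In polyamine metabolism, 2 of 13 were called higher: Sat1, the acetyltransferase that starts polyamine breakdown, at 1179, 1399 and 1946 in lithium and 1117, 1155 and 1252 in vehicle (1.24-fold, adjusted p = 0.000598), and Amd1, which supplies aminopropyl groups for their synthesis (1.09-fold, adjusted p = 0.0331). Amd1 was not called in 9 of the 20 fits that left out 1 library. Of 22 genes of the unfolded protein and integrated stress responses, Atf4, the main transcription factor of the integrated stress response, rose by 0.25 on the log2 scale (3747 ± 369 in lithium, 3135 ± 113 in vehicle, SD, n = 10 each, adjusted p = 0.000598) and Sesn2, a stress-induced sestrin, 1.25-fold (adjusted p = 0.00152). The clock list had 3 of 20 called higher, Per1, a light- and activity-induced period gene (1.36-fold, adjusted p = 0.00135), Arntl, the clock activator BMAL1 (1.15-fold, adjusted p = 0.0184), and Nfil3 (1.34-fold, adjusted p = 0.0331), and a median of -0.02. Arntl was not called without the 6 libraries apart in olfactory bulb markers (adjusted p = 0.0537). Nfil3 was not called in 11 of the 20 fits that left out 1 library. Per1 was also the 1 of 25 glucocorticoid response genes called.

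Besides Pnck, Mapk3, Spry4, Dusp6 and Sos1, 8 called genes had no overlap between the 10 lithium and the 10 vehicle libraries. They were singled out for this after their values were seen. Tnfrsf12a, the receptor of the cytokine TWEAK, was at 119, 137 and 172 (lowest, median and highest) in lithium and 72.1, 95.5 and 106 in vehicle (log2 0.59, adjusted p = 0.000598). Phf13, a reader of histone H3 methylation, was at 436, 502 and 643 in lithium and 349, 385 and 429 in vehicle (log2 0.41, adjusted p = 0.000364). Slc25a25, a calcium-regulated mitochondrial carrier of ATP, was at 1782, 1939 and 2119 in lithium and 1615, 1691 and 1741 in vehicle (log2 0.20, adjusted p = 0.000364). All 3 were higher in every lithium library. The membrane scaffold gene Mpp3 (0.28) and Vasn, the gene of the TGF-β binding protein vasorin (0.36), also rose, though Vasn was not called without the 6 libraries apart in olfactory bulb markers (adjusted p = 0.0836). Tspyl4 fell by 0.15 on the log2 scale, at 12646, 13769 and 14497 in lithium and 14668, 15060 and 15522 in vehicle, and Amdhd2, a deacetylase of amino sugar metabolism, fell by 0.25. The last of the 8 was the predicted gene Gm2061. Other called genes, also singled out after their values were seen, were Mcl1, which blocks apoptosis (0.26), and the ubiquitin ligase genes Siah2 (0.22) and Siah1a (-0.17). Siah2 was not called without those 6 libraries (adjusted p = 0.0645).

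Neuronal excitability and synapse lists held few calls, to be set against 2.22% of all genes called (1.33% higher, 0.892% lower). Kcnc1, the fast potassium channel Kv3.1, was the 1 of 49 potassium and calcium channel genes called (1.13-fold, adjusted p = 0.00195), and Pvalb, the calcium buffer of fast-spiking interneurons, the 1 of 20 inhibitory neuron markers (747 ± 97.0 in lithium, 549 ± 105 in vehicle, SD, n = 10 each, 1.37-fold, adjusted p = 0.00427). Pvalb was not called without the 6 libraries apart in olfactory bulb markers (adjusted p = 0.103). Irf9, an interferon response factor, was the 1 of 22 inflammation genes called (log2 0.25, adjusted p = 0.034) and lost its call in 10 of the 20 fits that left out 1 library. Of 48 autism risk genes, Ctnnb1, the histone methyltransferase-like Setd5 (-0.10) and the repressor Bcl11a (-0.17) were called lower and Tsc1, which restrains mTOR complex 1, higher (0.11). Apart from Ctnnb1 these calls were lost in 9 (Setd5), 4 (Bcl11a) and 15 (Tsc1) of the 20 fits that left out 1 library. No gene was called among 45 of glutamate receptors and the postsynaptic density, 23 of GABA receptors, 38 of vesicle release, 33 of sodium, potassium and proton transport, 26 of cholesterol synthesis, 74 of cytoplasmic ribosomal proteins or 75 of nuclear-encoded oxidative phosphorylation, whose median log2 changes lay between -0.05 and 0.03. Markers of astrocytes (16), myelin (23), microglia (20) and endothelial cells (20) had no calls either. Log2 changes above 0 were found for 11 astrocyte, 3 myelin, 7 microglia and 13 endothelial markers, with medians of 0.03, -0.09, -0.01 and 0.04. Over all genes tested 8431 of 16919 were above 0. Whether cell composition differed was not tested.

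Of the 376 genes called on the average of the sexes, 375 had the same sign in females and males, which that choice of genes favours. Over all genes tested the share was 8486 of 16919 (50.2%). Within females alone 199 genes (1.18%) were called, 129 higher (0.762%) and 70 lower (0.414%). Within males alone 11 (0.065%) were called, 1 higher (0.00591%) and 10 lower (0.0591%), with 3 in both. The test of the difference between the sexes called 0 genes by limma, with 1897 at an unadjusted p under 0.05, so the unequal counts do not show that the sexes differed. In females Tspyl4, of the nucleosome assembly protein family, fell by 0.23 and Cdk19, a kinase of the Mediator complex, by 0.29; Vgf rose by 0.68 on the log2 scale and Sat1 by 0.49, against 0.22 and 0.13 in males. In males Colgalt1 fell by 0.23, Ubald1 by 0.29, Pnck by 0.42 and the monocarboxylate transporter gene Slc16a11 by 0.44. Leaving out predicted genes, those with the smallest p for the difference were Arhgef10l (male minus female -0.40), the calcium channel gene Cacna1a (-0.42) and Gdf1 (-11.2, with libraries listed at 0 in both drug groups) downward, and Hltf (0.42), Igsf11 (0.38) and Mier1 (0.44) upward. Olfactory bulb markers went in opposite directions between the sexes, with a median log2 change of -0.81 in females and 0.48 in males. The female count was 41 and the male count 1 without the 6 libraries apart in these markers. Leaving out 1 library gave 43 calls in females without WT vehicle female replicate 2, 63 without WT lithium female replicate 3, 86 without WT vehicle female replicate 1, 100 without WT lithium female replicate 1 and 130 without WT lithium female replicate 2. In males such counts ran from 0 without WT lithium male replicate 4 to 29 without WT vehicle male replicate 2. The other male libraries that moved the count by over 1.5 times were lithium replicates 1 (2) and 5 (7) and vehicle replicates 1 (7), 3 (2), 4 (6) and 5 (6).

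The changes were next compared with those of lithium in HT mice, whose libraries are separate from the WT libraries. Lithium against vehicle in HT called 847 genes (5.01%), 465 higher (2.75%) and 382 lower (2.26%). Of the 376 genes called in WT, 123 (32.7%) were also called in HT, 87 higher and 36 lower in both, which is 14.5% of the HT calls. The sign was shared for 364 of the 376. The share of all genes tested with the same sign in WT and HT was not counted. Pnck fell by 0.42 in HT (adjusted p = 2.13e-06), Colgalt1 by 0.22 (adjusted p = 1.42e-05), Ctnnb1 by 0.27 (adjusted p = 2.1e-05) and Mapk3 by 0.22 (adjusted p = 0.000949). Ccnd1 rose by 0.31 in HT (adjusted p = 1.8e-05), Bdnf by 0.45, Vgf by 0.43 and Ier5 by 0.54. The median log2 change of the 58 early genes was 0.45 in WT and 0.29 in HT, 34 were called higher in WT and 16 in HT, and 44 had the larger log2 change in WT. These lists were chosen with earlier results of the data known, and the share of all genes with the larger change in WT was not counted. The log2 change of Fos was 1.07 in WT and 0.42 (adjusted p = 0.313) in HT, that of Dusp1 1.05 in WT and 0.31 (adjusted p = 0.298) in HT, and that of Ier2 0.78 in WT and 0.06 (adjusted p = 0.854) in HT. The test of the difference between the genotypes called 0 genes by limma, with 1139 of all genes and 10 of the 58 early genes at an unadjusted p under 0.05, so these differences in size did not pass. Leaving out predicted genes, the smallest p for that difference belonged to Sat1 (WT minus HT 0.37, adjusted p = 0.231), which rose in WT by 0.31 and had a log2 change of -0.06 in HT. Next came Cops9 (0.31), the ribosomal protein genes Rps18 (0.25) and Rpl27 (0.29) and Pimreg (1.54), and downward mt-Nd6 (-0.48), Mrpl35 (-0.30) and Gatad1 (-0.23), with adjusted p up to 0.49. Pimreg lay near the minimum level for a test, at 13.5 ± 7.20 in WT lithium and 9.59 ± 3.16 in WT vehicle (SD, n = 10 each). Ribosomal protein genes had a median log2 change of -0.01 with no calls in WT, and of -0.13 with 30 of 74 called lower in HT. The length trend of a library, the slope of its log2 deviations on log2 transcript length, was 0.00791 to 0.0469 in HT lithium females and -0.021 to 0.0485 in HT vehicle females, with medians of 0.0273 and -0.0148. In HT males it was -0.042 to -0.00927 with lithium and -0.0321 to -0.0103 with vehicle. The part of this trend in the HT values and in the genotype difference was not tested.

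**Figure D5:**
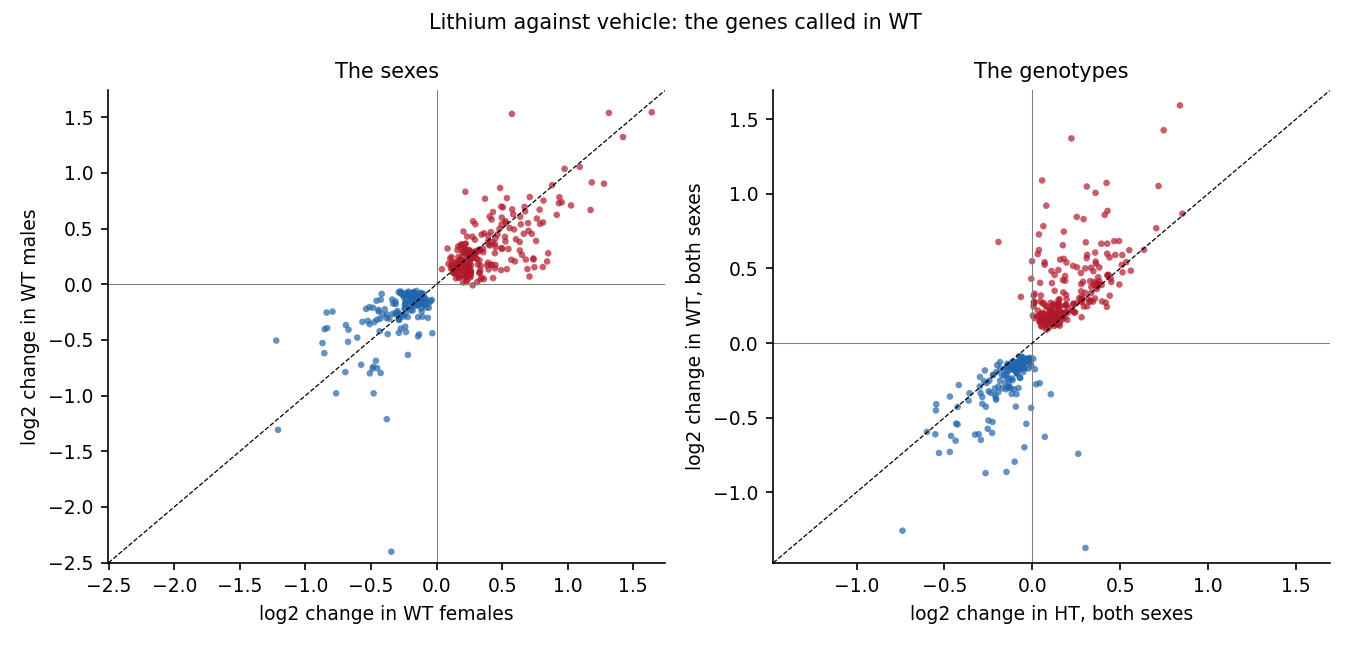
Log2 changes of the 376 genes called in WT, each a point, red for higher and blue for lower in lithium; left, males against females within WT, and right, WT against HT, with dashed lines of equal change. Points lie in the quadrants of shared sign, 375 of 376 for the sexes and 364 of 376 for the genotypes. Among the largest rises many lie above the line in the right plot, which the choice of genes by their WT calls favours.

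Lithium libraries were also set directly against WT fluoxetine libraries (9). In this contrast 3598 genes (21.3%) were called, 1896 higher (11.2%) and 1702 lower (10.1%) in lithium. Of the 58 early genes 38 were called higher in lithium than in fluoxetine. Arc was higher by 1.86 on the log2 scale (adjusted p = 1.05e-05), Fos by 1.58 and Gadd45b by 1.04. Pnck was lower than in fluoxetine by 0.21 (adjusted p = 0.0042) and Ctnnb1 by 0.16 (adjusted p = 0.0038), while Colgalt1 (-0.06, adjusted p = 0.17) did not pass. Those with the smallest p were Gadd45b, Elob, the elongin B gene (0.44), Usmg5 and Cox7a2, subunits of ATP synthase and cytochrome oxidase (0.49 and 0.52), higher in lithium, and Prrc2b (-0.27), lower in lithium. The length trend did not overlap between these groups, at -0.026 to -0.00111 in lithium and 0.0138 to 0.0504 in fluoxetine libraries. With a trend in length and GC content removed, 3171 genes were called, 1607 higher and 1564 lower. Ribosomal protein genes had a median log2 difference of 0.24 and oxidative phosphorylation genes of 0.24, and the part of the length trend in these was not tested. The lithium libraries are shared with the comparison against vehicle, so the results of the contrasts are not independent.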

How the data were processed

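RNA from prefrontal cortex was made into stranded mRNA libraries (TruSeq), per the labels' protocols, and the deposited table holds 59 libraries and 51456 Ensembl identifiers. The values are a signal that the authors deposited after normalization between libraries. The submitters' processing notes name Salmon 0.11.2, R 3.6.0, DESeq2 1.19.11 and GRCm38, with no settings. Low values were whole multiples of 1 step, within 0.1, for only 30.7 to 72.6% of values per library, so reads were not recovered and no count model was run. Precision therefore rests on the spread between libraries.

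limma 3.58.1 (R 4.3.3, trend and robust options) was fitted to log2(value + 1) of the 16919 genes whose average across the 59 libraries reached 10, with a mean for each of 12 groups of genotype, drug and sex. Effects were averaged over the sexes, tests were 2-sided, and the Benjamini-Hochberg adjusted p threshold was 0.05. Fold changes are on this scale, which understates changes of low genes. The fits were tested on simulated data.

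Genes named were the 10 largest rises and 10 largest falls among called genes averaging 50 or more, the members of lowest p (up to 4) in every list that held a call, all lithium targets tested, and up to 5 genes per further comparison or 3 in each direction where fewer were called. Others named were chosen after their values were seen, and some results are not reported here. The members and lists were chosen with earlier results of these data known. The alternatives were other pseudocounts, minimum levels, scalings and model options, a replicate block, a length and GC trend, and leaving out libraries.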

Additional observations from a re-analysis of the deposited data

Results flagged for a closer look

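Each value below was the highest or lowest of the 10 WT libraries of its drug and stood far from the nearest of the other 9, past the 95% value of Dixon's test, which chance passes in about 1 in 20 groups. All 163 named genes were examined in both drug groups, so many such values are expected by chance alone. Whether there were more than that was not tested. In WT lithium female replicate 4 the lowest value of the group was 554 for Dusp1, 2694 for Arc, 173 for Ier2, 1843 for Nr4a1, 420 for Sik1, 196 for Egr2, 865 for Junb, 687 for Fos, 1029 for Fosl2 and 363 for Btg2. These 10 genes belong to the early gene lists and are not independent of each other. WT lithium female replicate 5 was the lowest of its group for Pnck (991), Ctnnb1 (15276) and Mapk3 (3125).

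The remaining values were spread over other libraries. WT vehicle female replicate 2 was lowest for Gpr3 (101). WT vehicle female replicate 1 was highest for Nab2 (1329) and lowest for Chac1 (151) and Gatad1 (1331). WT vehicle male replicate 3 was highest for Ppp1r15a (520). WT lithium female replicate 3 was lowest for Grik1 (371). WT vehicle male replicate 4 was highest for Elob (2774). WT lithium male replicate 1 was lowest for Homer1 (5597) and Cacnb1 (3759) and highest for Kcnj10 (7373).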

How the results depend on the processing

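No named gene that was called changed sign under any alternative run, while 10 that were not called crossed 0. Of 86 named genes called, 63 were called in all 20 fits that left out 1 of the 20 WT libraries. Of those, 58 were also called under every other setting in which they were tested. These settings were 12, or 11 for genes below the minimum level of 100. Without the 6 libraries apart in olfactory bulb markers 65 of the 86 were called. The replicate block ended the calls of Siah2 (adjusted p = 0.0669), Klf2, Trib1, Fdxacb1, Gkn3 and Slc16a11 among others.

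The 376 calls over the sexes were 212 with no minimum level (203 shared) and 1346 with library weights (375 shared). Without the 6 libraries apart in olfactory bulb markers, an alternative chosen after seeing the data, they were 269, and leaving out 1 library gave 214 to 435. The 199 female calls were 106 with no minimum level, 591 with library weights and 41 without the 6 libraries, with 43 to 252 when 1 library was left out. The 11 male calls were 5 at a minimum of 1, 7 at a minimum of 100, 5 with no minimum, 5 with upper-quartile scaling, 20 when only the groups compared were fitted, 678 with library weights and 1 without the 6 libraries, with 0 to 29 when 1 library was left out. The sex difference, with 0 calls, had 1 with upper-quartile scaling, 4 when only the groups compared were fitted, 2 with library weights and 0 to 1 when 1 library was left out (1 without WT lithium female replicate 4). The genotype difference, with 0 calls, had 217 with library weights and 0 to 5 when 1 library was left out (1 without HT lithium male replicate 2 and 5 without HT vehicle female replicate 1). The count against fluoxetine moved by less than 1.5 times when 1 library was left out. The cause of these shifts was not tested. Upper-quartile scaling moved the median of all genes by -0.02.

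Replicate numbers did not pair the libraries: same-numbered libraries correlated at -0.02 to 0.11, and only for 1 number was its own the best. With the replicate block the count was 318, of which 216 were shared. The trend of the log2 change with transcript length differed between lithium and vehicle libraries by 0.00413 (exact permutation p = 0.249). TMM scaling was not run on values already normalized.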
